A study of Mus musculus with 8 samples.

Results

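The Obox genes encode oocyte-specific homeobox proteins, and 6 of them (Obox1, Obox2, Obox3, Obox5, Obox6 and Obox7) were followed in germinal vesicle (GV) oocytes that had lost Kiaa1429 and in their controls. The members were chosen by family membership and not by their values. They are 6 of the 52502 genes to which exon IDs of the deposited counts could be matched. Of the 6, 4 passed the filter on low counts and entered the tests (Obox1, Obox2, Obox5 and Obox7), and Obox3 and Obox6 did not.

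The cKO oocytes came from Kiaa1429F/F;Zp3-Cre females and the control oocytes from Kiaa1429F/+;Zp3-Cre females, so both groups carried the Cre and at least 1 floxed allele. Zp3-Cre is a recombinase driven by the promoter of a zona pellucida gene, active in growing oocytes, so the allele is lost during oocyte growth and not before it. All mice were C57BL/6 and are given as 20 days old in one label and as 3 weeks old in another. Each group had 4 libraries of about 20 fully grown oocytes, at least 70 µm across, taken 48 hours after 5 IU of pregnant mare serum gonadotropin, which stimulates follicle growth, from 4 separate experiments. The oocytes of both groups were released into medium with 2.5 mM milrinone, an inhibitor of phosphodiesterase that holds them at the GV stage. Which animals gave which library is not stated, so a p-value here speaks only of the spread among libraries, which may be technical.

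Obox proteins carry a homeodomain, a DNA-binding fold, and their genes lie as a cluster of similar copies on mouse chromosome 7. In the mouse, Obox1, Obox2, Obox5 and Obox7 are known as maternal genes whose transcripts are stored in the oocyte, while Obox3 is known mainly from the embryo after its genome has been switched on. The family is known to act, with redundancy between its members, in mouse zygotic genome activation, the first transcription of the embryo's own genes. The targeted gene, Kiaa1429 (current symbol Virma), codes for part of the enzyme complex that places N6-methyladenosine (m6A), a methyl mark, on messenger RNA.

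The copies are so alike that the sequences show what a read can tell apart. Obox7, Obox5, Obox2, Obox1 and Obox3 each hold an exon of 262 bases whose last 217 bases are coding and begin with the start codon. Those coding bases are printed for the 4 tested genes, because this exon is the longest that all 4 hold at equal length and free of other exon IDs. They lie on the plus strand of mm10 at chr7:14664037-14664253 in Obox7, chr7:15757537-15757753 in Obox5, chr7:15396845-15397061 in Obox2 and chr7:15555162-15555378 in Obox1. Each runs 5′ to 3′, as read from the GENCODE M21 transcripts, and capitals mark bases that differ from Obox7 at the same position.
Obox7: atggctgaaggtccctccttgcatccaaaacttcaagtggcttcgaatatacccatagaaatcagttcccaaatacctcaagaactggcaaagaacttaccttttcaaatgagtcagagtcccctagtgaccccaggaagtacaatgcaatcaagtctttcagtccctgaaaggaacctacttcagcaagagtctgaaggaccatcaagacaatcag
Obox5: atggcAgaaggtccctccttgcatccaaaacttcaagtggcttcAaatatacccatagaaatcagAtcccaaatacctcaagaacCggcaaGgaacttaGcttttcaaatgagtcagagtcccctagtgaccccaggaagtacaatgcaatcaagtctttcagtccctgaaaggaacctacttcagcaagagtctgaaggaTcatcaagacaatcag
Obox2: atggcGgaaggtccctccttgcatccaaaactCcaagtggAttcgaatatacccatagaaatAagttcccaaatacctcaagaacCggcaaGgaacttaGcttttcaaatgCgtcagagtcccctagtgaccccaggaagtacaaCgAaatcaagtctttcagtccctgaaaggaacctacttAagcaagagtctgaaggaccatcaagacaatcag
Obox1: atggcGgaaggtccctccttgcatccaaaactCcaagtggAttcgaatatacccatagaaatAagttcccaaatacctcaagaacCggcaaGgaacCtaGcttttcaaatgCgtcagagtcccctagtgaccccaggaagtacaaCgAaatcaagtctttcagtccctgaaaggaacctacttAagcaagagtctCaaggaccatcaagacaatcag
Over these 217 bases 7 differed from Obox7 in Obox5, 11 in Obox2 and 13 in Obox1. Over the whole 262-base exon Obox1 and Obox2 differed at 2 bases, Obox5 and Obox7 at 7, and every other pair of the 5 genes at 14 to 21. No stretch of 150 bases, the read length, was the same in this exon and in the annotated transcripts of any other gene. Of the 11 tested Obox exons that are at least 150 bases long, 10 shared no such stretch with another gene. The exception was the last exon of Obox2, where 150 of 563 windows also occur in Obox1. The first exon of Obox2 is shared with Obox1 in all 137 of its windows. A shared window says only that the letters do not separate the copies. Reads with several possible places are not accounted for in the labels, and their handling was not tested. The summary row for alignments that are not unique was 0 in every library. The first exon of Obox2, with 227 bases that no other exon ID covers, had 0 counts in every library. The Obox1 exon sharing those windows had 2 counts over the cKO libraries and 1 over the control libraries. The 286-base first exon of Obox5, with no shared window, had 211 and 315 in the same order. The 285-base first exon of Obox7, also with none, had 20 and 65.

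The targeted gene was measured first. Virma was at 18.6, 24.2, 17.8 and 17.0 CPM (counts scaled to library size) in cKO libraries 1 to 4, against 61.0, 71.6, 57.1 and 82.0 CPM in control libraries 1 to 4. The groups did not overlap, and cKO stood to control at a log2 fold change of -1.81 ± 0.18 (SE) with an adjusted p of 1.02e-06 in edgeR's quasi-likelihood test. The labels do not say which exons are floxed, so counts over all exons need not be 0 in cKO oocytes.

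Counts on exons came to 4399190 to 5064008 per cKO library and 4247471 to 4790038 per control library. The 10 oocyte markers summed to 18902 to 22695 CPM in cKO libraries and 34489 to 46261 CPM in control libraries, with Bmp15 the most abundant. The 14 cumulus and granulosa markers, of the cells that surround the oocyte, summed to 478 to 954 CPM in cKO libraries and 261 to 570 CPM in control libraries, led by Nr5a2, which is also listed below among genes of genome activation. Immune and blood markers summed to 5.52 to 9.46 CPM in cKO libraries and 0.239 to 1.55 CPM in control libraries, with Ptprc, Adgre1, Cd74, Hba-a1 and Hbb-bs at 0 throughout. Theca and stroma markers summed to at most 8.76 CPM and vessel markers to at most 13.9 CPM in any library. Reads set aside because they met more than 1 exon ID were 78.8% to 80.4% of reads in cKO libraries and 72.9% to 75.4% in control libraries. The part of these shifts in the Obox results was not tested, and in bulk oocytes fewer cells of a type and less RNA per cell cannot be told apart.

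All 4 Obox genes that could be tested were lower in cKO oocytes, with the largest fitted change in Obox7. Of the 10673 genes tested, 27.9% were called lower in cKO oocytes and 27.0% higher, at an adjusted p under 0.05, so a lower call alone is common here. A single member called lower would therefore say little, and the size of each change is given beside the spread of its libraries. CPM are shares of a library and do not measure RNA per oocyte.

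Obox7, at chr7:14659496-14665996 on the plus strand, had 372, 251, 241 and 238 CPM in cKO libraries 1 to 4, against 1132, 787, 945 and 1123 CPM in control libraries 1 to 4. Every cKO library lay below every control library, with cKO library 1 the highest of its group. The mean was 275 ± 64.9 CPM in cKO oocytes and 997 ± 164 CPM in control oocytes (SD, n = 4 each), or 27.6% of the control level by the fitted fold change. The log2 fold change was -1.86 ± 0.17 (SE; edgeR adjusted p = 4.86e-07). Of all tested genes 6.20% had a lower log2 fold change. By CPM, 721 genes stood above Obox7 in cKO oocytes and 163 in control oocytes.

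Obox2, at chr7:15388721-15398545 on the plus strand, had 1678, 1352, 1179 and 1508 CPM in cKO libraries 1 to 4, against 2323, 1739, 2083 and 2651 CPM in control libraries 1 to 4. The groups did not overlap, but the highest cKO library and the lowest control library lay close together. The fitted log2 fold change was -0.62 ± 0.15 (SE; edgeR adjusted p = 0.00227), 65.0% of the control level. Groups that do not overlap, with cKO lower, were seen in 25.1% of all tested genes, and Obox2 and Obox7 are 2 of them.

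Obox5, at chr7:15750131-15759800 on the plus strand, was the most abundant member by gene sum. It had 2609, 2274, 1842 and 2276 CPM in cKO libraries 1 to 4, against 3434, 2505, 3186 and 3757 CPM in control libraries 1 to 4. The groups touched, as cKO library 1 lay above control library 2. The log2 fold change was -0.52 ± 0.14 (SE; edgeR adjusted p = 0.00651), 69.9% of the control level. Only 38 genes in cKO oocytes and 27 in control oocytes had a higher CPM than Obox5.

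Obox1, annotated at chr7:15388948-15556866 on the plus strand, had 176, 136, 87.7 and 153 CPM in cKO libraries 1 to 4, against 242, 169, 218 and 313 CPM in control libraries 1 to 4. Here too 1 cKO library, library 1, exceeded the lowest control library. The log2 fold change was -0.77 ± 0.21 (SE; edgeR adjusted p = 0.00600), 58.7% of the control level. Obox1 is annotated across Obox2, because its annotation starts within that gene. Obox1 and Obox2 share 150-base stretches in their first and last exons, where the split of counts between them is uncertain. Of Obox1's counts 76.9% fell on its 262-base exon and 21.4% on a 200-base exon. Neither of these shared a 150-base stretch with another gene, and shorter stretches were not searched.

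**Figure D1:**
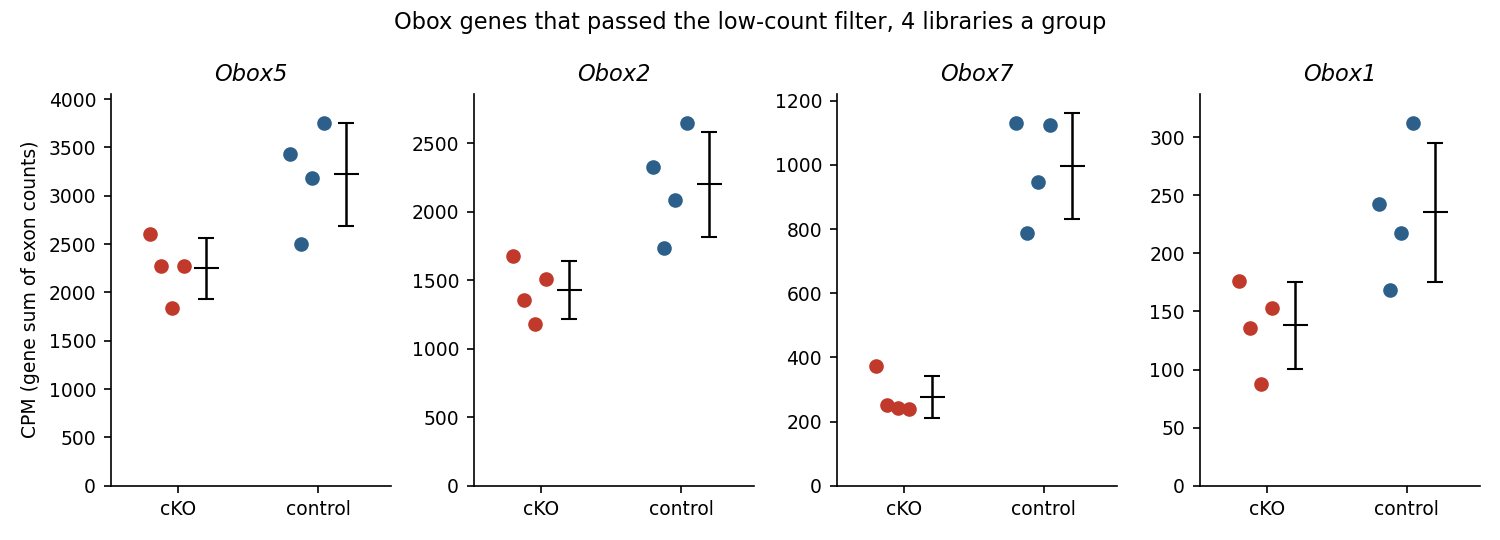
CPM of the 4 tested Obox genes in each library (points; the y axis of each panel starts at 0 and has its own scale), with the mean and SD of 4 libraries a group (black). For Obox7 the cKO libraries lie between 238 and 372 CPM and the control libraries between 787 and 1132 CPM, while for Obox5 and Obox1 the groups touch.

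Obox3 and Obox6 were at the limit of what was counted. Obox3, at chr7:15479825-15639902 on the minus strand, had 3, 1, 0 and 1 counts in cKO libraries 1 to 4 and 2, 1, 0 and 2 counts in control libraries 1 to 4. None of these counts lay on its 262-base exon, which has 0 bases of its own, since other exon IDs of Obox3 cover it and the counting set such reads apart. The absence of counts on that exon is therefore no measure of Obox3 RNA. Over its other exon IDs Obox3 has 1250 bases of its own, with 10 counts in all. The exon at chr7:15479825-15480127 held 70.0% of those counts. How far these bases represent Obox3 RNA was not tested. Obox6, at chr7:15833241-15839678 on the minus strand and studied in mouse cell reprogramming, had 4, 6, 1 and 17 counts in cKO libraries 1 to 4 and 13, 7, 6 and 8 counts in control libraries 1 to 4. Its 3 exon IDs are free of overlap, with 1344 bases of their own. The groups overlapped, and a floor of 3 counts was 0.592 to 0.706 CPM per library. With no filter on low counts the log2 fold change was -0.50 for Obox6 (edgeR adjusted p = 0.477) and -0.18 for Obox3 (0.931).

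Summed over the 6 genes, the family reached 4837, 4015, 3350 and 4178 CPM in cKO libraries 1 to 4, against 7134, 5201, 6434 and 7846 CPM in control libraries 1 to 4. The highest cKO library lay below the lowest control library. The mean was 4095 ± 611 CPM in cKO oocytes and 6654 ± 1127 CPM in control oocytes (SD, n = 4 each), a log2 ratio of -0.70. As a share of all counts on exons, the 6 genes made up 0.428% ± 0.0569 in cKO libraries and 0.624% ± 0.101 in control libraries. The summed level of the 10 oocyte markers, given above, was also lower in every cKO library than in any control library. Of the 10 genes 4 were called lower, 1 higher and the other 5 neither, where 27.9% of all tested genes were called lower and 27.0% higher.

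The make-up of the family differed between the groups mainly through Obox7. Obox7 held 7.70%, 6.25%, 7.18% and 5.69% of the family's counts in cKO libraries 1 to 4, against 15.9%, 15.1%, 14.7% and 14.3% in control libraries 1 to 4. Obox5 held 53.9% to 56.7% in cKO libraries and 47.9% to 49.5% in control libraries. Obox2 held 33.7% to 36.1% in cKO libraries and 32.4% to 33.8% in control libraries, which overlapped. Obox1 held 2.62% to 3.66% in cKO libraries and 3.24% to 3.99% in control libraries. Shares within a total move together, so a smaller share of Obox7 leaves a larger one for the others.

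**Figure D2:**
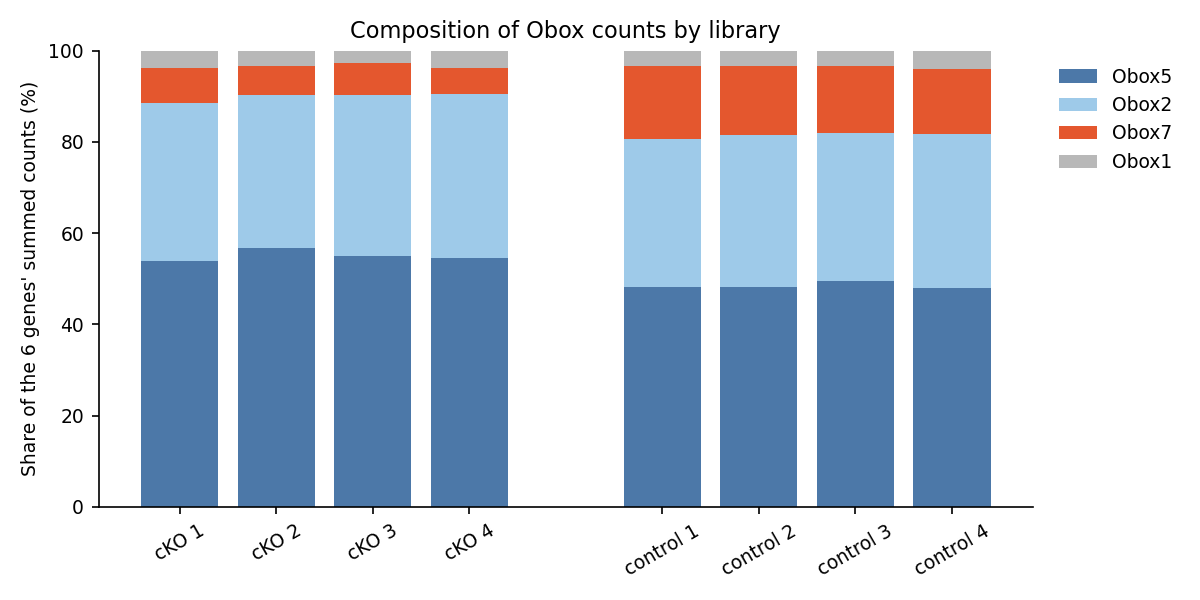
Share of the summed counts of the 6 Obox genes held by Obox5, Obox2, Obox7 and Obox1 in each library (stacked bars, percent; Obox3 and Obox6 together hold too little to be seen). Obox7 holds 5.69% to 7.70% in cKO libraries and 14.3% to 15.9% in control libraries.

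Whether members changed by different amounts was asked with the ratio of their counts within each library, which needs no scaling between libraries. For the 6 pairs of tested members, all 70 ways of splitting the libraries gave an exact permutation p (two-sided), which cannot fall below 0.0286. Obox7 over Obox5 was 0.143, 0.110, 0.131 and 0.105 in cKO libraries 1 to 4, against 0.330, 0.314, 0.297 and 0.299 in control libraries 1 to 4. The groups lay far apart compared with their spread, and the mean log2 ratio differed by -1.35. Obox7 over Obox2 was 0.158 to 0.222 in cKO libraries and 0.424 to 0.487 in control libraries, a difference of -1.25. Obox7 over Obox1 was 1.55 to 2.74 in cKO libraries and 3.59 to 4.67 in control libraries, a difference of -1.09. Each of these 3 pairs gave the smallest exact p of 0.0286, which became 0.0571 after Benjamini-Hochberg adjustment over the 6 pairs and so missed 0.05. In all 3 ratios every cKO library lay below every control library. With each library left out in turn, the differences ranged from -1.43 to -1.28 for Obox7 over Obox5, -1.32 to -1.16 over Obox2 and -1.23 to -0.96 over Obox1.

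The other 3 pairs differed less. The difference was -0.27 for Obox1 over Obox5 and -0.10 for Obox2 over Obox5 (exact permutation p = 0.0571 and adjusted p = 0.0686 for each), and -0.16 for Obox1 over Obox2 (exact permutation p = 0.371). Without cKO replicate 3 the difference was -0.16 for Obox1 over Obox5 and -0.05 for Obox1 over Obox2. These values do not show that the 3 genes responded alike.

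The 262-base exon gave a second reading of the same question, chosen after seeing the data. In it Obox7, Obox5, Obox2 and Obox1 each have 262 bases of their own, so levels can be set side by side without a correction for length. Coverage along the genes still differed. Per kb of own bases in control oocytes, this exon had 179 CPM in Obox7 and 663 in Obox5, and their last exons 1298 and 2612. The order of genes on this exon therefore need not be the order of their RNA. Obox2 was highest, at 181 ± 38.2 CPM in cKO oocytes and 282 ± 44.2 CPM in control oocytes. Obox5 had 112 ± 26.5 CPM in cKO oocytes and 174 ± 36.9 CPM in control oocytes, and Obox1 had 106 ± 28.1 CPM in cKO oocytes and 181 ± 46.5 CPM in control oocytes, a pair not separated by their spread within either group. Obox7 was lowest, at 12.9 ± 2.20 CPM in cKO oocytes and 46.9 ± 8.15 CPM in control oocytes (SD, n = 4 each throughout).

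That order is unlike the order of the gene sums, where Obox5 stood first and Obox1 last. The gene sums rest on different exons. The last exon, of 729 bases, held 94.9% of Obox7's counts and the last exon of Obox5 92.7% of its counts. In Obox1 the last exon has only 20 of its 716 bases to itself, and 76.9% of that gene's counts fell on the 262-base exon. A gene sum therefore ranks these genes by what could be counted as well as by their RNA.

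On the 262-base exon Obox7 over Obox5 was 0.118, 0.104, 0.167 and 0.0951 in cKO libraries 1 to 4, against 0.261, 0.286, 0.282 and 0.261 in control libraries 1 to 4. The groups again did not overlap, and the difference in mean log2 ratio was -1.20. Obox7 over Obox2 differed by -1.19 and Obox7 over Obox1 by -1.07 on this exon, each without overlap. Obox1 over Obox5 differed by -0.13, at 0.880 to 0.989 in cKO libraries and 0.994 to 1.11 in control libraries. With these 4 of 6 pairs at the smallest exact p of 0.0286, their adjusted p was 0.0429. The exact permutation p was 0.286 for Obox1 over Obox2 (-0.12) and 0.914 for Obox2 over Obox5 (-0.01).

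**Figure D3:**
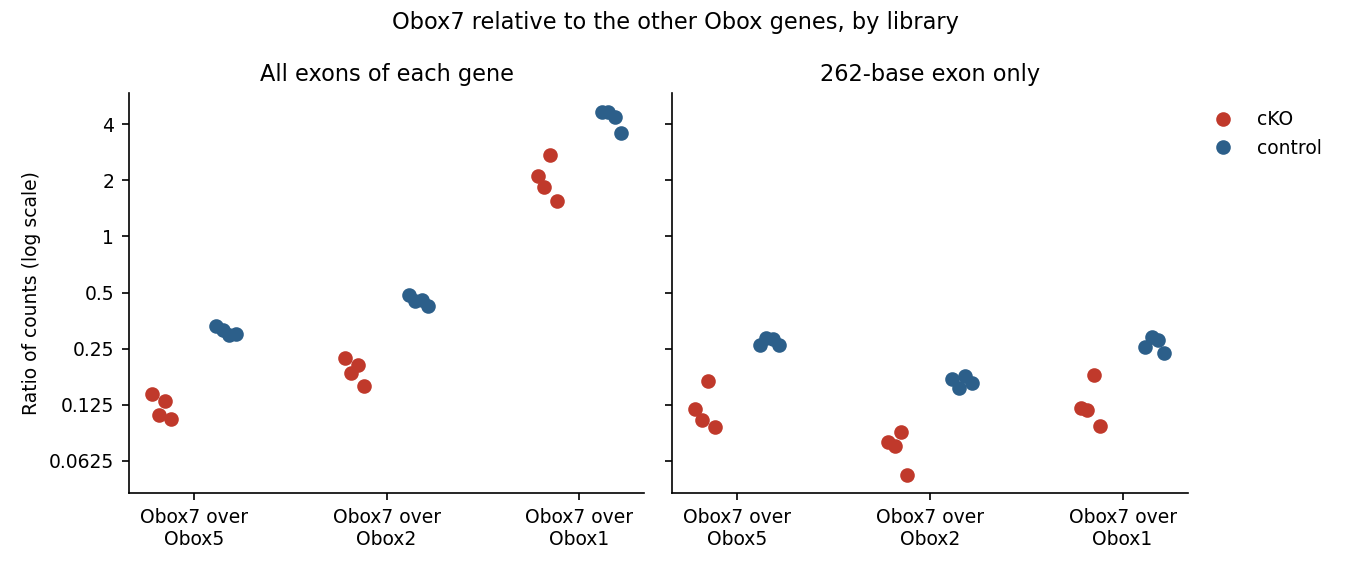
Ratio of Obox7 counts to those of Obox5, Obox2 and Obox1 in each library (log axis), over all exons (left) and on the 262-base exon alone (right). Over all exons Obox7 over Obox5 is 0.105 to 0.143 in cKO libraries and 0.297 to 0.330 in control libraries, and in none of the 6 comparisons do the groups overlap.

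Each member was then followed exon by exon. The 6 genes have 63 exon IDs, of which 37 have bases that no other exon ID covers and 26 have none, and 22 received any count. The filter kept 12 exons, and 11 of them were lower in cKO oocytes at an adjusted p under 0.05, where 27.3% of all 14052 tested exons were. The 2 exons of Obox7 gave nearly the same change, -1.83 ± 0.19 for the 262-base exon (edgeR adjusted p = 1.65e-06) and -1.83 ± 0.17 for the last exon (edgeR adjusted p = 4.95e-07). In Obox2 the 3 exons ranged from -0.70 to -0.58, and in Obox5 the 4 exons from -0.78 to -0.48. In Obox1 the 262-base exon was at -0.74 and the 200-base exon at -0.77.

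The exon that was not called is a 140-base first exon of 1 Obox1 model, at chr7:15548411-15548550, with 13, 15, 6 and 8 counts in cKO libraries 1 to 4 and 8, 5, 15 and 12 counts in control libraries 1 to 4. The groups overlapped widely, and its log2 fold change was -0.12 ± 0.42 (SE; edgeR adjusted p = 0.822). A change in exon usage, that is an exon moving unlike the rest of its gene, was called in 0 of the 12 Obox exons by diffSpliceDGE, with 0 at an unadjusted p under 0.05, and in 13.4% of all 6931 exons so tested. The log2 usage changes ran from -0.29 to 0.61, with adjusted p of 0.618 at the lowest, and no other tool was run for usage. However, 1 exon held 94.9% of counts in Obox7, 92.7% in Obox5, 83.3% in Obox2 and 76.9% in Obox1. Such an exon can hardly move unlike its own gene, so the absence of calls does not show that usage was unchanged.

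**Figure D4:**
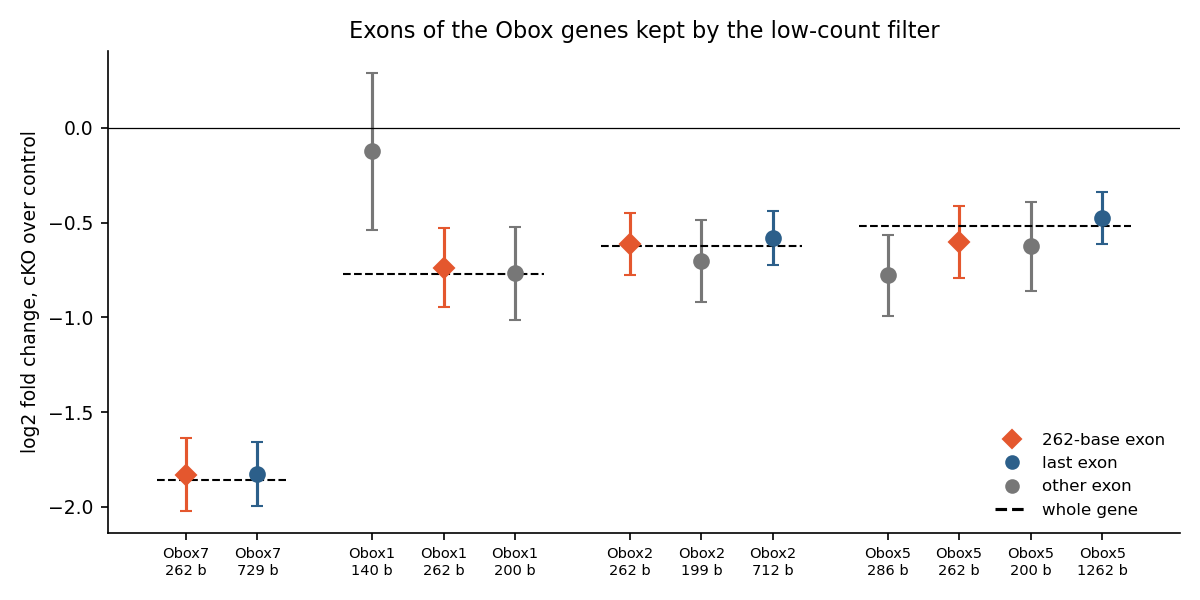
Log2 fold change of cKO over control for the 12 Obox exons that passed the filter (points with SE; exon lengths in bases, b, under each), with the change of the whole gene (dashed). Both exons of Obox7 lie at -1.83, while the exons of the other 3 genes lie between -0.78 and -0.12.

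Sequence upstream of the genes was looked at because the 4 tested members were all lower. RefSeq (GRCm38.p6) windows of 250 bases before the start were at hand for 5 members, Obox1, Obox2, Obox3, Obox5 and Obox7. The longest run of letters common to the windows of Obox7, Obox5, Obox1 and Obox3 was 25 bases, printed once because it is identical in the 4 genes.
shared run: gtgagaattaaggatttgaatattg
It lies at chr7:14659624-14659648 in Obox7, chr7:15750260-15750284 in Obox5, chr7:15547159-15547183 in Obox1, all on the plus strand, and chr7:15639862-15639886 on the minus strand in Obox3. Of all 32851 RefSeq windows of that length, these 4 are the only ones that hold it on either strand. The run was taken from these same 4 windows, so this count describes letters and is no test. The Obox2 window was left out of this search and does not hold the run, although Obox2 was tested and lower. Obox3 holds it but could not be tested, so the run does not mark the lower members. The run ends 59 to 85 bases before the RefSeq start and falls within a GENCODE exon in all 4 genes, so the 2 annotations place the start differently. In pairs, Obox1 and Obox2 shared a run of 153 bases, Obox5 and Obox7 one of 87, and Obox2 and Obox3 one of 8.

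Short motifs were searched in the same 250 bases on both strands. TATATAA, a form of the TATA box, was found in Obox1, Obox3 and Obox5, and in 3.04% of all windows. TAATCC, a core bound by bicoid-type homeodomains, was found in Obox3 only, and in 6.25% of all windows. TAATTA and TAATTG, which share their first 5 letters and resemble sites of the oocyte homeobox protein NOBOX, were found in 0 of the 5 genes, and in 4.84% and 7.17% of all windows. CANNTG, the E-box, was found in Obox1, Obox2, Obox5 and Obox7, and in 66.2% of all windows. A match is a description of letters, and no match says only that they are absent from this window.

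As Virma belongs to the m6A writer, the letters GGACT (with U for T in RNA), the most frequent core of m6A sites, were counted on the sense strand of each gene's longest annotated transcript. They occurred 0 times in Obox1, Obox2, Obox3, Obox6 and Obox7 and 1 time in Obox5. Among tested genes whose longest transcript was within 20% of the same length, 77.5% to 88.7% held GGACT at least once. GAACT occurred 1 to 5 times and AGACT 1 to 4 times in the 6 genes. Among tested genes of like length 79.7% to 91.8% held GAACT and 82.7% to 91.4% held AGACT, so their presence is common. m6A itself was not measured in these libraries.

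The cluster holds many further copies. In all 55 genes carry an Obox name, 53 of them between chr7:14331436 and chr7:15839678 and 2 on chromosome 17. Beside the 6 members there are 49, of which 47 are annotated as pseudogenes, and 26 had no count in any library. Only 12 had at least 10 counts over all libraries, and 2 passed the filter.

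Obox4-ps3, an unprocessed pseudogene at chr7:14548714-14549233, had 1, 1, 5 and 1 counts in cKO libraries 1 to 4, against 26, 17, 19 and 18 counts in control libraries 1 to 4. The groups did not overlap, and the log2 fold change was -3.45 ± 0.45 (SE; edgeR adjusted p = 1.26e-05). Without cKO replicate 3, which holds 5 of the 8 cKO counts, it was -4.40 (edgeR adjusted p = 6.70e-06). Obox4-ps3 lies within the annotated span of Nlrp5-ps, but no other exon ID covers any of its 520 bases. Obox3-ps8, a processed pseudogene on chromosome 17, had 16, 23, 15 and 22 counts in cKO libraries 1 to 4 and 29, 21, 20 and 30 counts in control libraries 1 to 4. Its log2 fold change of -0.61 missed the threshold (edgeR adjusted p = 0.0540) and passed it without control replicate 2 (-0.71, adjusted p = 0.0369).

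With no filter on low counts, further copies were called in both directions, where that fit called 12.7% of 29551 genes lower and 13.3% higher in cKO oocytes. Its p-values are not on the scale of the main fit. At almost the same fold changes, the edgeR adjusted p was 3.43e-33 without the filter and 4.86e-07 with it for Obox7. For Obox3-ps8 it was 0.162 without the filter and 0.0540 with it. Obox4-ps34 had 4, 0, 0 and 1 counts in cKO libraries 1 to 4, against 7, 8, 8 and 16 counts in control libraries 1 to 4 (log2 fold change -3.05, edgeR adjusted p = 1.41e-05). Obox4-ps31 was lower, at 7 counts over the cKO libraries and 25 over the control libraries (edgeR adjusted p = 0.0140). Obox3-ps6 was higher, at 51 counts over the cKO libraries and 12 over the control libraries (edgeR adjusted p = 0.00217), as was Obox3-ps5, at 73 counts and 29 counts (edgeR adjusted p = 0.0233). The other 6 copies with at least 10 counts in all were Obox3-ps1, Obox3-ps4, Obox4-ps9, Obox4-ps2, Obox4-ps27 and Obox8, with 11 to 24 counts each, and none of them was called by that fit. Below 10 counts, Obox3-ps2 was called higher, with 2, 3, 0 and 3 counts in cKO libraries 1 to 4 and 0 in each control library (edgeR adjusted p = 0.0334), and is named here after its values were seen. At such counts a few reads decide the value.

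The 14 tested genes within 1 Mb of the cluster that carry no Obox name were set beside the members. Of them 7 (50.0%) were lower and 1 (7.14%) higher in cKO oocytes, against 27.9% and 27.0% of all tested genes. Their median log2 fold change was -0.52, where the median over all tested genes was 0.02. The one gene called higher was Sae1, a subunit of the enzyme that activates SUMO, at 111 ± 19.6 CPM in cKO oocytes and 42.8 ± 6.77 CPM in control oocytes (log2 fold change 1.38, edgeR adjusted p = 8.06e-06). Sult2a4, a sulfotransferase, was lower at 10.4 ± 1.76 CPM in cKO oocytes and 25.1 ± 6.45 CPM in control oocytes (-1.27, edgeR adjusted p = 2.30e-04). Phf20-ps, a pseudogene, was lower by -0.74 and Arhgap35, a GTPase-activating protein, by -0.85. Arhgap35 was at 0.31 (edgeR adjusted p = 0.447) when last exons were left out. The only tested gene inside the cluster, Nlrp5-ps, was lower at 6.51 ± 1.81 CPM in cKO oocytes and 10.9 ± 3.14 CPM in control oocytes (-0.73, edgeR adjusted p = 0.0338). With 14 genes this is a count and not a test of the region.

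Other homeobox genes moved in both directions. Of 81 listed, 27 could be tested. Among these 11 (40.7%) were higher and 7 (25.9%) lower in cKO oocytes, against 27.0% and 27.9% of all tested genes. Their median log2 fold change was 0.15. Msx1, a developmental repressor, had 21.3 ± 2.79 CPM in cKO oocytes and 0.370 ± 0.309 CPM in control oocytes. Hoxd1, a Hox cluster gene, had 23.9 ± 7.71 CPM in cKO oocytes and 0.536 ± 0.627 CPM in control oocytes. Their edgeR adjusted p values were 2.52e-08 for Msx1 and 2.97e-07 for Hoxd1. The control libraries held 6 counts of Msx1 and 9 of Hoxd1 in all, so the sizes of these changes are poorly fixed. Cux2, a CUT homeobox gene, was lower at 21.2 ± 4.22 CPM in cKO oocytes and 62.6 ± 14.2 CPM in control oocytes (edgeR adjusted p = 1.02e-05).

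Of 11 transcription regulators of the oocyte 7 could be tested, with 1 higher, 1 lower (14.3% each) and a median of -0.13. The shares over all tested genes were 27.0% higher and 27.9% lower. Sohlh2, a helix-loop-helix factor of early oocytes, was higher at 173 ± 6.35 CPM in cKO oocytes and 11.8 ± 4.97 CPM in control oocytes (log2 fold change 3.88, edgeR adjusted p = 1.07e-08). Bnc1, basonuclin, a zinc finger protein of the oocyte, was lower at 227 ± 13.8 CPM in cKO oocytes and 485 ± 74.7 CPM in control oocytes (-1.10, edgeR adjusted p = 8.00e-06). Nobox, an oocyte homeobox gene on both lists, was at 0.39 (edgeR adjusted p = 0.0601) and missed the threshold. It passed without control replicate 2 (0.55, adjusted p = 0.00603), with last exons left out (0.52, 0.0284) and with no scaling factor (0.55, 0.0155). Tbpl2, an oocyte form of the TATA-binding protein, was at -0.43 (edgeR adjusted p = 0.0899) and missed it too. It passed without control replicate 3 (-0.60, adjusted p = 0.00732) and with protein-coding genes only (-0.52, 0.0454), but was at -0.03 with last exons left out (adjusted p = 0.910).

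Of 28 genes known from genome activation 11 could be tested, with 6 (54.5%) higher, 2 (18.2%) lower and a median of 0.78. Among all tested genes 27.0% were higher and 27.9% lower. Dppa4, a chromatin factor upstream of 2-cell genes, was higher at 134 ± 14.6 CPM in cKO oocytes and 38.5 ± 5.28 CPM in control oocytes (log2 fold change 1.80, edgeR adjusted p = 2.28e-07). Nr5a2, a nuclear receptor, was higher at 323 ± 26.8 CPM in cKO oocytes and 139 ± 36.4 CPM in control oocytes (1.22, edgeR adjusted p = 2.33e-05). Usp17lc, of a deubiquitinase family with near-identical copies, was higher, with 248 counts over the cKO libraries and 9 over the control libraries (edgeR adjusted p = 1.68e-05). Tcstv3, known from 2-cell embryos, was lower at 14.9 ± 1.07 CPM in cKO oocytes and 42.4 ± 8.37 CPM in control oocytes (-1.51, edgeR adjusted p = 8.23e-06). These counts describe the lists and were given no test of their own.

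**Figure D5:**
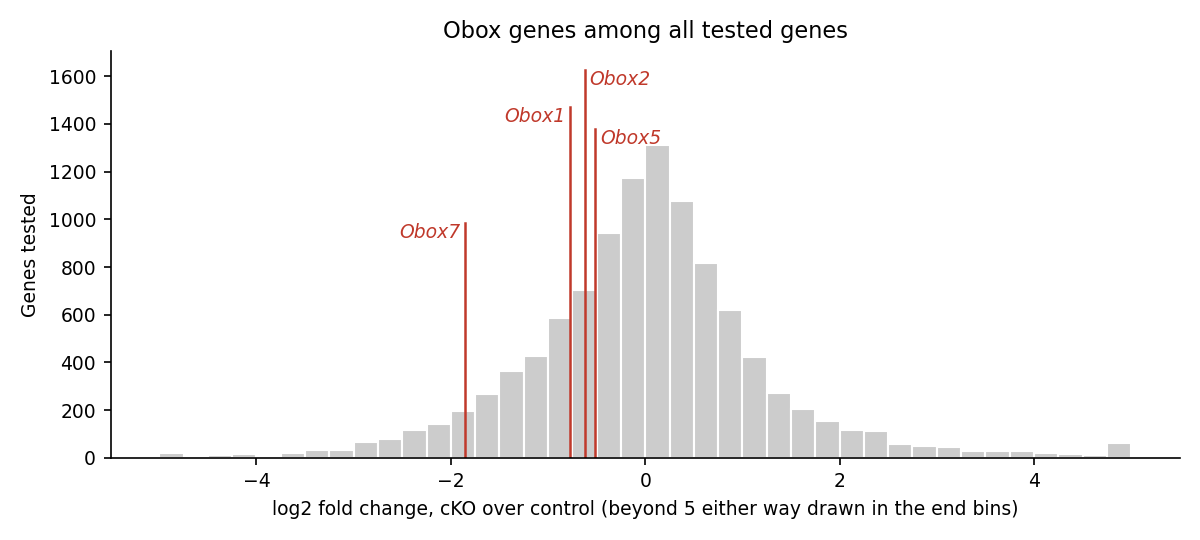
Log2 fold change of cKO over control for the 10673 tested genes (bars, number of genes in bins; values beyond the ends are drawn in the end bins), with the 4 tested Obox genes as lines. Obox1, Obox2 and Obox5 lie on the lower shoulder of the distribution, and Obox7 at -1.86 lies further out.

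The genes whose profile over the 8 libraries was most like that of the summed family were sought among the 6453 tested genes that averaged 10 CPM or more. Likeness was the root mean square difference of log2 CPM, each gene centred on its own mean. The nearest were the non-coding RNA A730082K24Rik (0.0636), Ttc33 (0.0735), the antisense RNA Gm13752 (0.0777), the non-coding RNA Gm36307 (0.0790) and Cndp1, a dipeptidase (0.0863). All 5 were lower in cKO oocytes, which their likeness brings with it. A730082K24Rik was the most abundant of them, at 1241 ± 118 CPM in cKO oocytes and 2109 ± 319 CPM in control oocytes. Libraries without a strand mark cannot separate Gm13752 from a gene on the other strand.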

How the data were processed

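Polyadenylated RNA of GV oocytes was reverse transcribed from oligo-dT with template switching, amplified, tagmented and sequenced as paired 150-base reads, per the labels' protocols. Such libraries mark no strand. What the authors deposited is, for each library, a file of raw counts by exon ID. The submitters' processing notes name STAR, HTSeq and mm10. Versions, options and annotation release: not given in the sources used here. Reads meeting more than 1 exon ID were set apart, so an exon is counted mainly on bases of its own. The 5 summary rows per file stayed out of library sizes and tests. Among them, reads outside every exon ID were 5.01% to 6.19% in cKO libraries and 9.86% to 12.0% in control libraries. The part of this difference in the Obox results was not tested. Counts on last exons were 76.8% of the total.

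Of 496288 exon IDs 494230 (99.6%) matched GENCODE M21 (same build, versions ignored). The other 2058 held 0.252% of counts and were left out. Counts were summed per gene, filtered with filterByExpr (minimum count 10), scaled by TMM and tested in all 8 libraries by edgeR 4.0.16 in R 4.3.3 (quasi-likelihood F test on group, no covariate, Benjamini-Hochberg over all genes). CPM use TMM-scaled library sizes. Exon usage was tested with diffSpliceDGE, and ratios with 0.5 added to each count. DESeq2 1.42.0 was an alternative. The edgeR script was tested on simulated data. No 2 libraries held identical values.

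The members, gene lists, and rules for named genes (Virma, the members, other Obox genes with at least 10 counts, up to 4 genes of smallest p per list, 5 most alike genes) were chosen with earlier results of these data known. A gene that the rule takes is not reported here. Promoter letters come from RefSeq.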

Additional observations from a re-analysis of the deposited data

Results flagged for a closer look

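In a group of 4 libraries, a value was picked out where the gap to its nearest neighbour exceeded Dixon's 95% critical share of the group's range. Of 70 groups examined 5 were picked out, where chance gives about 1 in 20. Obox7 in cKO replicate 1 was at 372 CPM, above 251 CPM in the next library. The ratio of Obox1 to Obox2 in cKO replicate 3 was 0.0745, below 0.1003 in the next. Obox4-ps3 in cKO replicate 3 was at 1.07 CPM (5 counts), above 0.222 CPM in the next library (1 count). Bnc1 in cKO replicate 4 was at 206 CPM, below 232 CPM in the next. Tcstv3 in control replicate 3 was at 30.0 CPM, below 45.2 CPM in the next.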

How the results depend on the processing

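The 4 member calls kept direction and threshold under all 16 alternatives run for each. Log2 fold changes ranged from -2.02 to -1.70 for Obox7, -0.91 to -0.61 for Obox1, -0.73 to -0.46 for Obox2 and -0.63 to -0.36 for Obox5. With each library left out in turn, the genes called numbered 2602 to 3068 higher and 2764 to 3018 lower. With last exons left out, 1312 genes were higher and 1443 lower among 5725 tested. Then Arhgap35 was at 0.31 (adjusted p = 0.447), and A730082K24Rik (-0.44, 0.304), Gm36307 (-0.05, 0.919) and Cndp1 (-0.34, 0.124) lost their calls; the cause was not tested. No scaling factor moved all log2 fold changes by 0.16 at the median, with 3499 genes higher and 2482 lower. On the shared 262-base exon, an alternative chosen after seeing the data, the differences of Obox7 over Obox5 (-1.20), Obox2 (-1.19) and Obox1 (-1.07) and of Obox1 over Obox5 (-0.13) passed 0.05 at an adjusted p of 0.0429, as 4 pairs and not 3 reached the smallest exact p. Same-numbered libraries deviated together with correlations of 0.11, -0.06, 0.10 and 0.06, so the numbers were not taken as pairs. With the replicate number as a block 2885 genes were higher and 2908 lower, and every member call was kept. All Obox-named genes counted as 1 feature were at -0.70 (edgeR adjusted p = 8.11e-04). Obox3 and Obox6 were too sparsely counted to show a change. For Obox3 this is not a matter of depth alone, since 10 of its 17 exon IDs have no bases of their own.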
